A study of Homo sapiens with 4 samples.

Results

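The clustered protocadherin genes were followed in ATAC-seq, an assay in which a transposase cuts and tags the DNA it can reach in intact chromatin. In the GENCODE annotation (release 44), members were those genes of chromosome 5 that encode a protein and have a symbol beginning with PCDHA, PCDHB or PCDHG. They were 53 of 20033 protein-coding genes, with 15 in the alpha, 16 in the beta and 22 in the gamma cluster, and all 53 lay on the plus strand. Their loci spanned chr5:140786136-141512977 (hg38), a stretch of 727 kb. With 50 kb added on each side, that stretch held 30 of the 164301 regions formed by merging the called peaks of all libraries. Pancreatic progenitor cells in all libraries were derived from MEL1, an established human embryonic stem cell line that the study's methods give as MEL1 INS GFP/W, with a GFP reporter at 1 allele of the insulin gene. They were cultured in EF6 medium, a serum-free mixture with B27, EGF, bFGF and a TGFβ receptor inhibitor. For 7 days the cells received either DMSO, the solvent, or 1 μM I-BET151, a small molecule that blocks the bromodomains of the BET proteins, which read acetylated chromatin. There were 2 libraries in each group, each made from 50000 cells. No label says that the 2 libraries of a group came from separate cultures, so the spread between them may be technical, and all values come from a single cell line. The design asks how the inhibitor changed accessible chromatin.

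Clustered protocadherins are cadherin-like cell surface proteins, best known from neurons, where each cell expresses its own small set of members and matching sets on neighbouring membranes bind to each other. In the alpha and gamma clusters each variable exon has its own promoter and is spliced to constant exons shared by the whole cluster, whereas beta members are single-exon genes. Most variable exon promoters are chosen by chance in each neuron, with CTCF and cohesin folding a distant enhancer onto the chosen promoter, while the C-type members at the end of the alpha and gamma clusters (PCDHAC1, PCDHAC2, PCDHGC3, PCDHGC4 and PCDHGC5) are used more constitutively. CTCF sites in alpha variable exons and in their enhancers are known to act in pairs that point towards each other.

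Those CTCF sites are shown first because they recur at nearly the same place across the alpha cluster. A 12-base CTCF consensus, searched on both strands within 1 kb of each start with up to 1 mismatch, was present in 10 of 15 alpha promoters, 2 of 16 beta promoters and 0 of 22 gamma promoters. The 10 alpha matches belonged to PCDHA4 through PCDHA13, lay between 575 and 626 bp downstream of the start inside the coding part of the variable exon, and were exact in 4 of them. Over all members the share with a match on either strand was 22.6%, near the 21.3% of all protein-coding promoters. On the gene strand the shares were 22.6% and 11.7%, and on the opposite strand 0% and 11.2%. A match is a description of the letters and not a measurement of CTCF, and a promoter without a match is not shown to lack CTCF. The 10 alpha matches are given on the plus strand of hg38, with the match in capitals and its coordinates before 50 bases of sequence.
PCDHA4, chr5:140807644-140807655: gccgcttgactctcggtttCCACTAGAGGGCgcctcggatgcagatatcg
PCDHA5, chr5:140822229-140822240: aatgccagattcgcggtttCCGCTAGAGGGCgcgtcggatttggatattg
PCDHA6, chr5:140828548-140828559: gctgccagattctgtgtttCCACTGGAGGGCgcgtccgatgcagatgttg
PCDHA7, chr5:140834840-140834851: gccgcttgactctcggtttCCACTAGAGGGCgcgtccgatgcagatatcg
PCDHA8, chr5:140841778-140841789: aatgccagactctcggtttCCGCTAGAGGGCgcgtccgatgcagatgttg
PCDHA9, chr5:140848952-140848963: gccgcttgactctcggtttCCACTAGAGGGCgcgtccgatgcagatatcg
PCDHA10, chr5:140856502-140856513: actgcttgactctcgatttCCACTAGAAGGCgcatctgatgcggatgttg
PCDHA11, chr5:140869560-140869571: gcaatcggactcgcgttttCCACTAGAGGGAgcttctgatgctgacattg
PCDHA12, chr5:140875929-140875940: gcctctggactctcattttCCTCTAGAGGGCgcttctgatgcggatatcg
PCDHA13, chr5:140882725-140882736: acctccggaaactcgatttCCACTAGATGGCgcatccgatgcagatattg
The 50 bases of PCDHA7 and PCDHA9 were identical. Of the 10 promoters with these matches, those of PCDHA4, PCDHA10 and PCDHA12 were called accessible in at least 1 library.

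Among the 30 called regions of the locus 3 (10.0%) contained the consensus, near the 11.4% of all merged regions. One was the PCDHA12 promoter region. The others were a region in the spacer between the alpha and beta clusters and a region in intron 26 of DIAPH1, a neighbouring formin gene past the gamma cluster. Both of these distal regions were called in all 4 libraries, and their exact matches lay on the minus strand, opposite to the matches of the alpha exons. They are written 5′ to 3′ on the minus strand, again with the match in capitals.
spacer region, first match, chr5:141040363-141040374: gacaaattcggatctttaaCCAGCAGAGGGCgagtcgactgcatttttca
spacer region, second match, chr5:141041372-141041383: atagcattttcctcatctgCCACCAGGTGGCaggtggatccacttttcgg
DIAPH1 intron 26 region, chr5:141524894-141524905: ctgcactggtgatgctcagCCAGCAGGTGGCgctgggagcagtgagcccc
The second spacer match also read on the plus strand with 1 mismatch, so it is 1 site seen from either strand.

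Promoters of the members also shared a much shorter word. The letters CGCT, the core of a short element known from variable exon promoters, occurred on the gene strand between 250 bp before and 50 bp after the start in 51 of 53 members, compared with 66.5% of all protein-coding promoters. On either strand the shares were 96.2% and 82.4%. PCDHA9 and PCDHGC5 had no copy in this window. In the 36 members with 1 copy it lay at a median of −48.5 bp (range −198 to 35). Beta promoters shared a longer stretch around this core. GGTGGCGCTG, the 10-letter word found in the most members and one that contains CGCT, was present in 13 of 16 beta promoters, in 0 alpha or gamma promoters and in 0.255% of all protein-coding promoters on the gene strand. At PCDHB9 the CTCF match, at −77 bp from the start, ran into this longer word, so the searches overlapped there. Both words were searched for after the peak values had been seen. The promoters of PCDHA12, PCDHGA10 and PCDHGC4, the 3 members whose accessibility differed most between the groups, are given from RefSeq (GRCh38.p14, plus strand) with CGCT in capitals.
PCDHA12, chr5:140875058-140875357: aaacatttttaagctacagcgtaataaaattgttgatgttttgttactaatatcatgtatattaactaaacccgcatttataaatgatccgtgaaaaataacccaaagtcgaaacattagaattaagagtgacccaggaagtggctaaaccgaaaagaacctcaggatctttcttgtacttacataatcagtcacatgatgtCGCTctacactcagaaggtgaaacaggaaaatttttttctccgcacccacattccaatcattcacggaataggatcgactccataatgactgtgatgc
PCDHGA10, chr5:141412737-141413036: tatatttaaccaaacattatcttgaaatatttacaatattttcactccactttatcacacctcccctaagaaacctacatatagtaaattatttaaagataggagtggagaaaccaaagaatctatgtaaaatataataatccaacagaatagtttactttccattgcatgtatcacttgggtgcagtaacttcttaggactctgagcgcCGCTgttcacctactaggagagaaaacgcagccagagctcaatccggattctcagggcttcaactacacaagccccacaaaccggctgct
PCDHGC4, chr5:141484780-141485079: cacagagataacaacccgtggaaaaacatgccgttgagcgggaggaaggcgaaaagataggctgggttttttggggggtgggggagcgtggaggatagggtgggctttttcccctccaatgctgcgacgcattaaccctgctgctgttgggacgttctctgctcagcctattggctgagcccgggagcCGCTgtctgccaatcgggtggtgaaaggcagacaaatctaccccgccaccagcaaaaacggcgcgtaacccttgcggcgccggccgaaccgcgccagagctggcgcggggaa
The summit of the called PCDHGC4 region lay at −271 bp from the start, just before the sequence shown. A second RefSeq promoter of PCDHGC4 is not shown. A RefSeq promoter was matched for 47 of the 53 members. In all 11 members with a called promoter, the called region covered the copy of CGCT nearest the 3′ end of the window. Each of these regions also covered the start, so a copy this near was likely to fall inside it. The share over other called promoters was not computed, and no link between the word and accessibility follows.

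Depth differed between the libraries in a way that moved with treatment. The DMSO libraries held an estimated 38.7 and 36.6 M reads and 82568 and 38295 peaks, while the I-BET151 libraries held an estimated 12.5 and 16.0 M reads (M, 1e+06 reads) and 84995 and 111324 peaks. Fold enrichment, the reads at a peak's summit over the local background with 1 added to both, was therefore set beside the percentile of each peak within its own library, where 0 means that no peak was called. The median fold enrichment of all peaks was 3.88 and 4.08 in the DMSO lists and 5.56 and 6.03 in the I-BET151 lists. Higher fold in I-BET151 was therefore common to the lists as a whole. An uncalled region says only that it did not pass the peak caller at that depth. The part of depth and peak number in the differences below was not tested. Promoters of pancreatic progenitor markers were called in all 4 libraries for 6 of 8 genes. The promoter of PDX1, which is a defining progenitor factor, was called only in both I-BET151 libraries. Of 4 neuronal markers, SNAP25 and SYP were called in all 4 libraries and ELAVL4 and STMN2 in none, with a mean percentile of 31.2 ± 14.7 in DMSO and 36.8 ± 0.683 in I-BET151 (SD, n = 2). Of 3 fibroblast or mesenchyme markers, TWIST1 was called in all 4 libraries and PDGFRB and COL1A2 in both I-BET151 libraries alone, and the mean percentile was 9.88 ± 2.53 in DMSO and 18.3 ± 1.70 in I-BET151. The 5 endocrine markers, INS and NEUROG3 among them, had no call in either DMSO library and 1 in each I-BET151 library, and of 3 pluripotency markers SOX2 was called in all 4 libraries and POU5F1 and NANOG in none. The part of these other cell types in the results was not tested.

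Most protocadherin promoters had no called peak. Within 1 kb of the start, 11 of 53 members (20.8%) had a peak in at least 1 library, compared with 73.8% of all protein-coding genes. Only 5 members (9.43%) were called in all 4 libraries, compared with 53.0% of all genes, and 42 were called in none. The uncalled members were 10 of the alpha, 14 of the beta and 18 of the gamma cluster. By class, 4 of the 5 C-type members were called in all 4 libraries, and PCDHGC5 in none. Of the other 48 members, 1 (PCDHB2) was called in all 4 libraries and 41 in none. For comparison, 9 of 21 non-clustered protocadherins and other large cadherins were called in all 4 libraries and 4 in none. The promoters of the proteins known to act on the cluster, such as CTCF, the cohesin subunits and SMCHD1, were called in all 4 libraries for 14 of 16 genes.

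The longest stretch without any called region ran over 225 kb from PCDHB3 to PCDHB15 and contained 14 beta starts. The next ran over 86.5 kb and held the 14 gamma starts from PCDHGA1 to PCDHGA9. Members were also poorer in G and C than most genes. Within 250 bp of the start the median was 43.5% for members and 64.7% for all promoters, with 49.1% in the 11 called and 43.3% in the 42 uncalled members. Near-identical copies can lose reads in alignment. Stretches of 100 bases that recur within the locus and its flanks were found around 14 of the 42 uncalled starts (at most 28.7% of the stretches). They were found around 2 of the 11 called ones (at most 5.42%). The rest of the genome was not searched for copies, and the part of this in the calls was not tested.

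**Figure D1:**
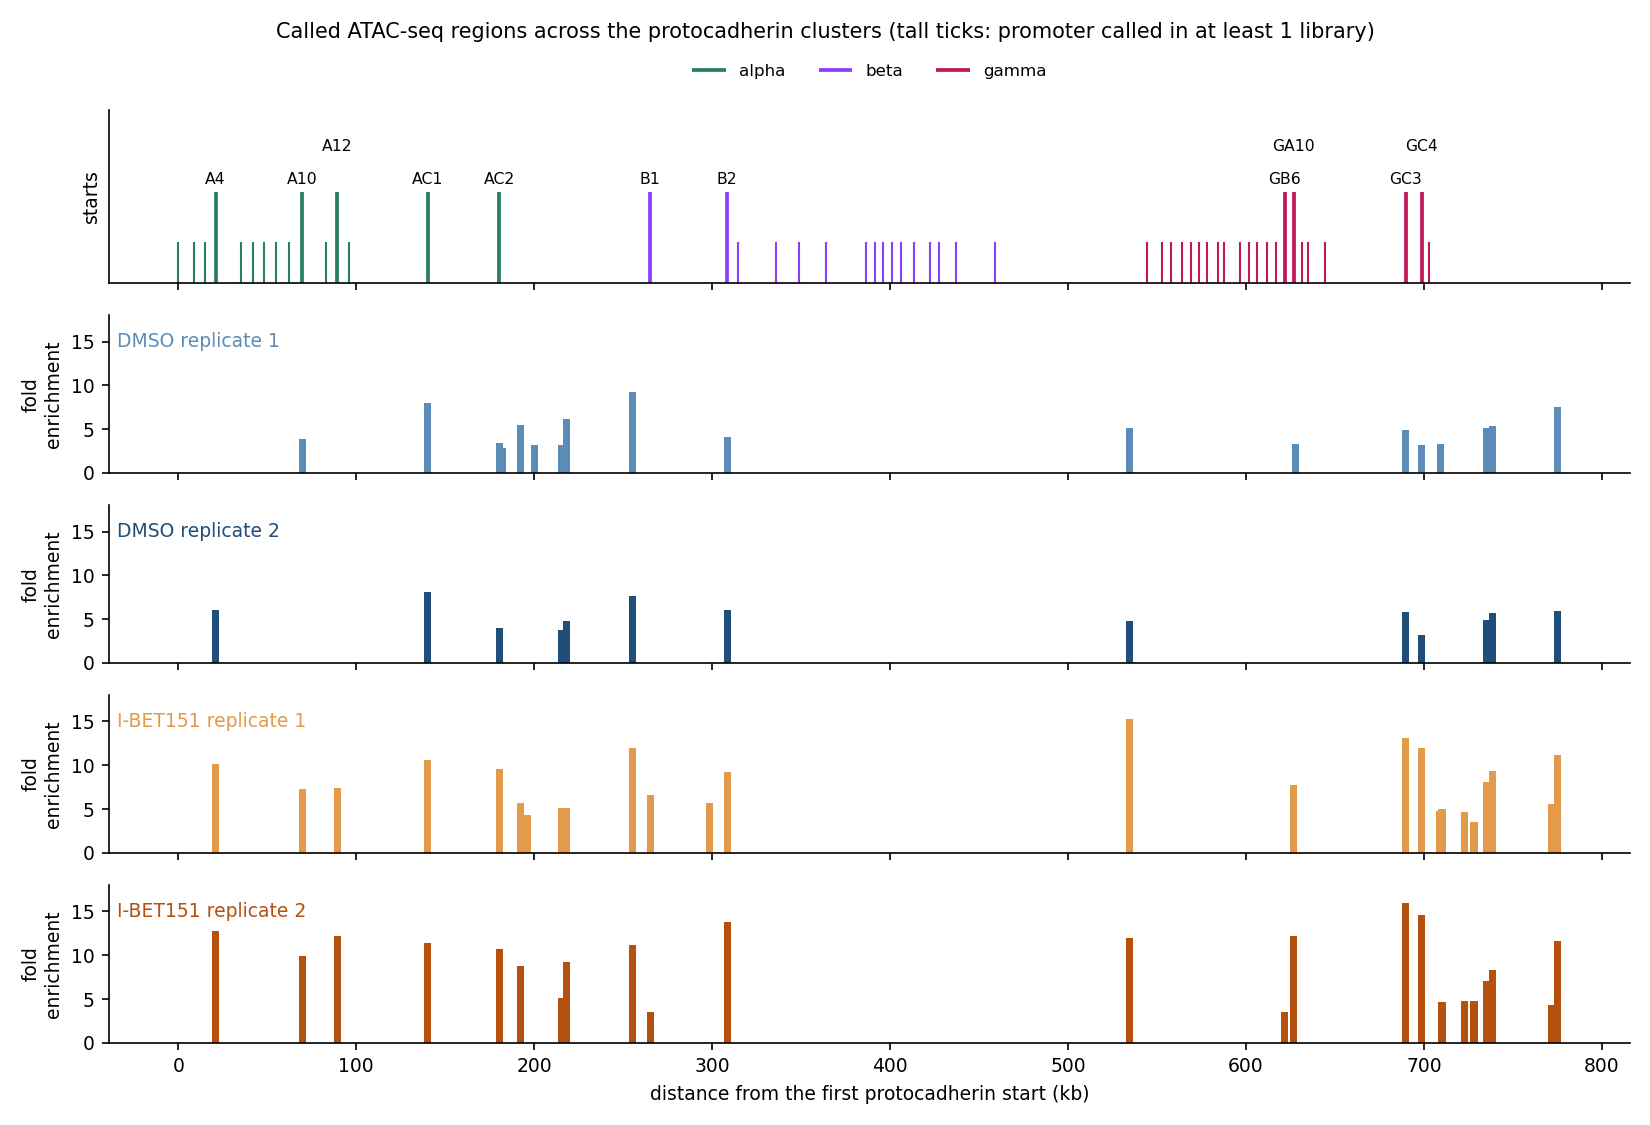
Fold enrichment of each called region (bars, y axis) against its distance in kb from the first protocadherin start (x axis), 1 panel per library. In the top panel each tick is a member start coloured by cluster, tall and named where a promoter peak was called in at least 1 library. No bar stands over the 14 beta starts from PCDHB3 to PCDHB15, and the I-BET151 panels have 25 and 23 bars and the DMSO panels 18 and 13, where 49.2% and 67.7% and 47.9% and 22.9% of all merged regions were called in the same libraries.

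DMSO replicates 1 and 2 had 18 and 13 of the 30 regions of the locus (60.0% and 43.3%), compared with 47.9% and 22.9% of all merged regions. I-BET151 replicates 1 and 2 had 25 and 23 (83.3% and 76.7%), compared with 49.2% and 67.7% of all merged regions. Called in all 4 libraries were 12 regions (40.0%, compared with 15.6% of all merged regions). Regions gained, meaning called in both I-BET151 and neither DMSO library, numbered 7 (23.3%), against a background of 17.0% of all merged regions. Lost regions, called in both DMSO and neither I-BET151 library, numbered 0, against 2.37% of all regions. The 7 gained regions were at the starts of PCDHA12, PCDHB1 and PCDHGA10, in introns 2 and 3 of the gamma genes, just past the gamma cluster and in intron 18 of DIAPH1. With each list cut to the same number of peaks as the shortest, 3 of 19 regions were gained (PCDHA10, PCDHA12 and PCDHGA10). Of all merged regions 9.19% were gained in that setting.

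At the level of genes, a promoter peak was called for 7 and 6 members in DMSO and for 10 and 11 members in I-BET151, a mean of 6.5 and 10.5. In the same libraries 60.6% and 55.7% and then 66.2% and 70.3% of all protein-coding promoters were called. The members' count has no test, since an exact permutation test of 2 libraries against 2 cannot go below p = 0.33. Over all 53 members, with uncalled promoters at 0, the mean percentile was 7.25 ± 0.720 in DMSO and 15.8 ± 0.261 in I-BET151 (SD, n = 2), a difference of 8.58. Over all protein-coding promoters it was 40.7 ± 4.10 and 50.5 ± 0.805, a difference of 9.88. Both means include uncalled promoters, which were 42 of the 53 members and 26.2% of all genes. By cluster, the mean percentile in DMSO and I-BET151 was 13.4 and 28.7 for alpha, 5.08 and 12.8 for gamma and 4.48 and 7.94 for beta promoters. Of single genes, 2 members (PCDHA12 and PCDHB1) had gained promoters, against 7.19% of all genes, and 0 had lost ones, against 0.374%.

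In the alpha cluster 5 promoters were accessible, 3 of them in stochastically chosen exons. PCDHA12 had no peak in either DMSO library. It stood at the 73.5 and 92.6 percentiles in I-BET151, with fold enrichments of 7.45 and 12.2. A promoter without a peak ranks below every called promoter, so the gap between the groups follows from the calls and adds no support. Of all protein-coding promoters 7.19% were gained in the same way. The merged region, chr5:140874989-140876217, covered both the start and the CTCF match 626 bp downstream, and had its summit in the 5′ untranslated part of exon 1. In I-BET151 replicate 2 a single peak covered both, whereas I-BET151 replicate 1 had separate peaks over the start and over the match.

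PCDHA4 was called in DMSO replicate 2 at the 83.6 percentile but not in DMSO replicate 1, and reached the 89.1 and 93.9 percentiles in I-BET151. PCDHA10 showed the opposite choice of DMSO library, with the 49.9 percentile in replicate 1 and no call in replicate 2, against 72.0 and 83.8 in I-BET151. For each of these promoters both I-BET151 values lay above both DMSO values, but the 2 DMSO libraries disagreed on whether it was called. Their regions, chr5:140806769-140807400 and chr5:140855742-140856221, ended before the CTCF match of the same exon.

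PCDHAC1 and PCDHAC2, the C-type alpha members, were open throughout. PCDHAC1 stood at the 96.5 and 94.5 percentiles in DMSO and at 90.5 and 90.1 in I-BET151, the only shared member promoter whose I-BET151 values lay below both DMSO values. Its fold enrichments were 7.94 and 8.08 in DMSO and 10.6 and 11.4 in I-BET151, so the direction depended on the scale. The median fold of the whole lists was also higher in I-BET151. PCDHAC2 stood at 28.7 and 48.8 in DMSO and at 86.7 and 87.3 in I-BET151, with fold enrichments of 3.41 and 4.04 against 9.60 and 10.7. Its I-BET151 values lay close together and clear of the DMSO ones.

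In the beta cluster the 2 accessible promoters were the first members. PCDHB2 was called in all 4 libraries, at the 59.7 and 83.6 percentiles in DMSO and at 84.9 and 96.1 in I-BET151. The higher DMSO library and the lower I-BET151 library nearly met. PCDHB1 was called in both I-BET151 libraries alone, but weakly and unevenly, at the 64.7 and 8.28 percentiles, with 12 and 8 reads at the summit.

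The 4 accessible gamma promoters were those of PCDHGB6 and PCDHGA10, in the middle of the cluster, and of the C-type members PCDHGC3 and PCDHGC4 near its 3′ end. PCDHGA10 had a region over its start, chr5:141412858-141413402, in neither DMSO library, and at the 76.3 and 92.5 percentiles in I-BET151. A separate 200-base peak inside its coding exon was called in DMSO replicate 1 alone, at the 26.2 percentile, so the gene counted as called in 3 libraries although its start region was gained. PCDHGB6, named after its values were seen, was called in I-BET151 replicate 2 alone at the 8.28 percentile. Neighbouring starts such as PCDHGB7 and PCDHGA11 had no peak in any library.

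PCDHGC3 had the highest mean percentile of any member in I-BET151. It stood at the 78.6 and 82.05 percentiles in DMSO and the 96.8 and 98.5 percentiles in I-BET151, with fold enrichments of 4.93 and 5.83 against 13.1 and 15.9. The groups did not overlap.

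PCDHGC4, a C-type member, passed the test described after the plot of percentiles. Its region, chr5:141484452-141485413, was at the 17.7 and 18.8 percentiles in DMSO and at 94.5 and 97.3 in I-BET151. Fold enrichment was 3.18 and 3.20 in DMSO and 11.9 and 14.6 in I-BET151. Both DMSO libraries had 21 reads at the summit, and the I-BET151 libraries had 53 and 91 from fewer reads in all. The median region called in all 4 libraries also had more, by 1.93 log2 reads per M at the summit in I-BET151. The promoter was thus among the weaker peaks in DMSO and among the strongest in I-BET151, and the spread within a group was small beside the gap between groups.

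**Figure D2:**
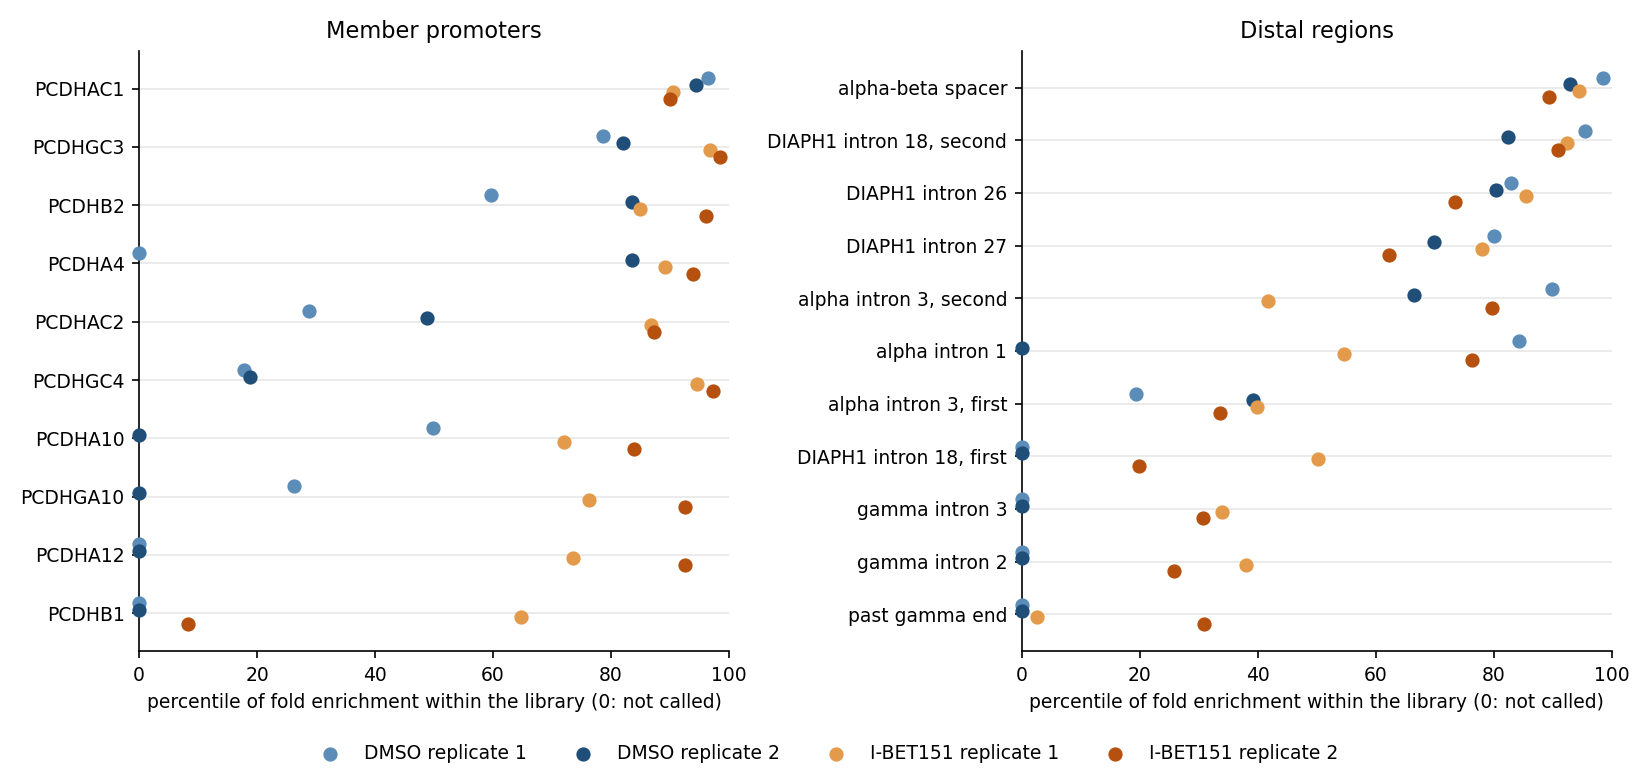
Percentile of fold enrichment within each library (x axis, 0 where no peak was called) for 10 member promoters (left) and 11 distal regions (right), 1 point per library. PCDHGC4 moved from the 17.7 and 18.8 percentiles in DMSO to 94.5 and 97.3 in I-BET151, whereas the spacer region between the alpha and beta clusters stayed between 89.3 and 98.6 in all libraries.

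The 12 regions called in all 4 libraries could be tested. Ranks of fold enrichment within each library were turned into normal scores and fitted with limma over all 25627 shared regions, with Benjamini-Hochberg adjustment over all of them. In that fit 875 shared regions rose (3.41%) and 503 fell (1.96%). The split depended on the scale, with 184 higher and 1224 lower on reads per M at the summit centred on each library's median, and 8 higher and 27 lower on ranks by −log10 p. Before centring, the median shared region had 1.93 more log2 reads per M in I-BET151. Of the 12 in the locus, 1 rose and 0 fell. The region that rose was the PCDHGC4 promoter, with a change of 2.61 ± 0.382 in normal score (SE; limma adjusted p = 0.00459), at the 99.9 percentile of the changes of all shared regions. Without adjustment, 6 of the 12 regions had a limma p under 0.05, 4 of them higher and 2 lower, compared with 24.9% of all shared regions. On the centred scale PCDHGC4 was higher by 1.21 ± 0.207 (log2, SE; limma adjusted p = 0.0250). The PCDHGC4 call held in the other fits of all 4 libraries in which the region could be tested. The limma adjusted p was 1.37e-05 with a replicate block and 0.0369 on ranks by −log10 p. It was 0.00464 with −log10 p of at least 5 and 8.13e-08 with a crossed replicate block, 2 settings chosen after seeing the data. With 1 library left out in turn, the change in normal score was 2.35 to 2.74. When lists were cut to equal length, to −log10 p of at least 10 or to 50% overlap, the region was no longer called in all 4 libraries and could not be tested.

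Next in size were PCDHAC2, with a change of 1.19 ± 0.412 (limma adjusted p = 0.0952), PCDHGC3, with 1.15 ± 0.401 (limma adjusted p = 0.0957), and the promoter of TAF7, a TFIID subunit gene between the beta and gamma clusters, with 1.18 ± 0.444 (limma adjusted p = 0.117). These did not pass the threshold. PCDHB2 had a change of 0.62 ± 0.472 and PCDHAC1 of −0.82 ± 0.378, with limma adjusted p of 0.439 and 0.190.

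**Figure D3:**
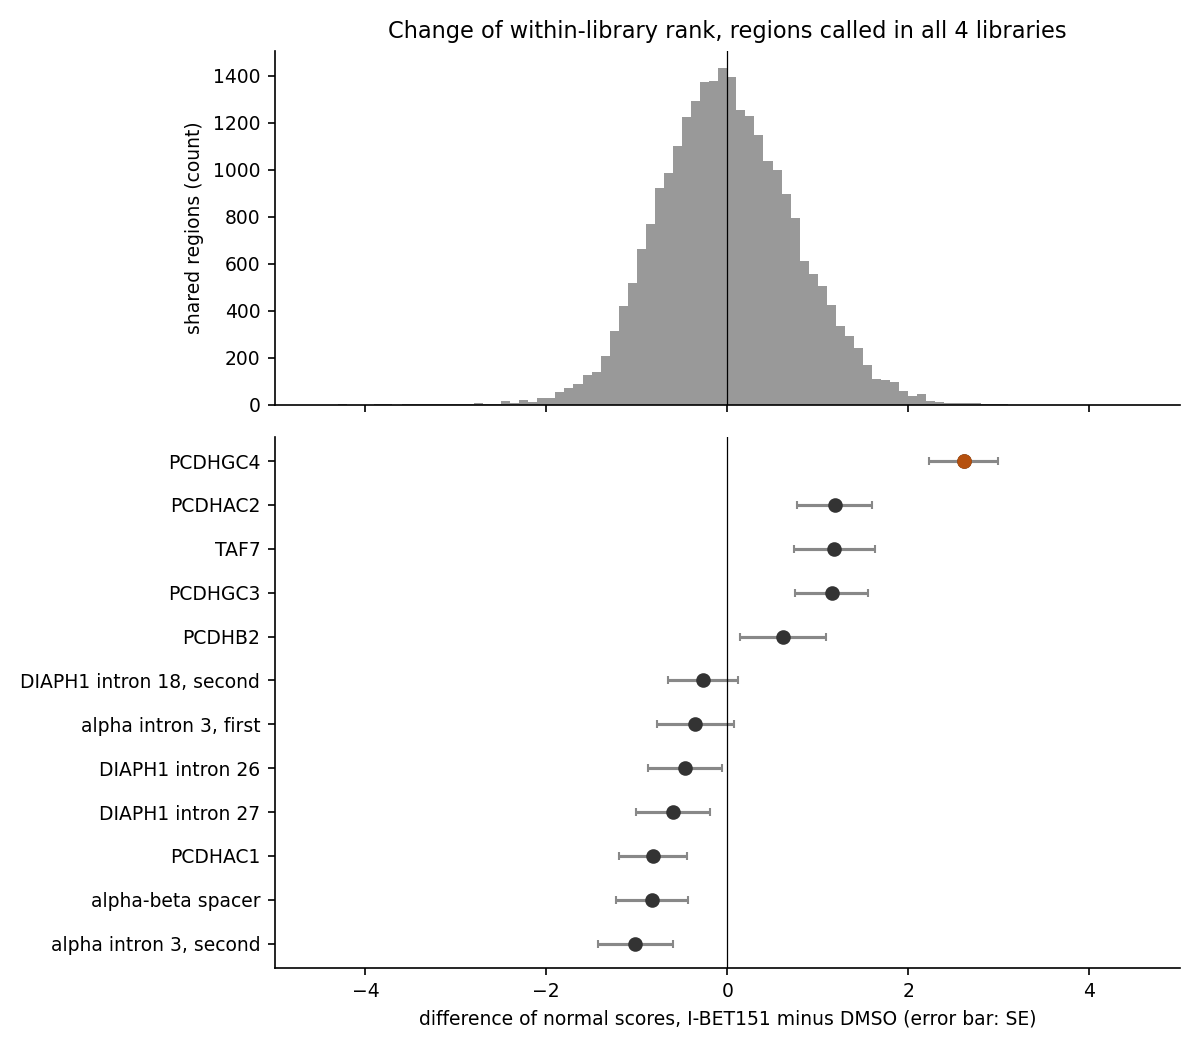
Top, histogram of the change in normal score, I-BET151 minus DMSO, over all 25627 regions called in all 4 libraries. Bottom, the same change for the 12 shared regions of the protocadherin locus (points, with SE as bars), the coloured point being the only one past the limma threshold, PCDHGC4 at 2.61.

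Shared promoters and shared distal regions, which include candidate enhancers, were compared side by side. Among the shared regions, 4 of 5 member promoters had both I-BET151 percentiles above both DMSO percentiles, compared with 42.3% of all shared promoter regions. Among the distal ones it was 0 of 6, compared with 39.9% of all shared distal regions. Both I-BET151 percentiles lay below both DMSO percentiles at 1 of 5 member promoters (PCDHAC1) and 0 of 6 distal regions, compared with 14.9% and 7.54% of all shared promoter and distal regions. The difference between these groups of regions was not tested.

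Accessible distal chromatin was led by the spacer region between the alpha and beta clusters, chr5:141039779-141041495, which contains both minus-strand CTCF matches. It overlapped no protein-coding gene and lay at −10141 bp from the start of PCDHB1. Its percentiles were 98.6 and 92.9 in DMSO and 94.5 and 89.3 in I-BET151, with fold enrichments of 9.28 and 7.61 against 11.95 and 11.2. The groups overlapped in percentile, with a lower mean in I-BET151. They did not overlap in fold enrichment, which was higher in both I-BET151 libraries, as was the median fold of the whole lists. The direction thus depended on the scale. The change in normal score was −0.83 ± 0.399 (limma adjusted p = 0.207).

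Inside the alpha cluster, 3 named regions lay past the last variable exon, in introns 1 and 3. In intron 3, chr5:141004172-141004646 stood at the 89.9 and 66.5 percentiles in DMSO and at 41.7 and 79.8 in I-BET151, so the libraries of each group were far apart. Its change of −1.02 ± 0.416 did not pass the threshold (limma adjusted p = 0.146), although it was called lower when I-BET151 replicate 2 was left out. A weaker region of the same intron, chr5:141001385-141002351, stood at 19.4 and 39.2 against 39.8 and 33.6. In intron 1, chr5:140978147-140978745 was called in DMSO replicate 1 at the 84.3 percentile, not in DMSO replicate 2, and at 54.6 and 76.3 in I-BET151.

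Past the 3′ end of the gamma cluster, inside DIAPH1, 3 more regions were called in all 4 libraries. The region of intron 27, chr5:141521085-141521829, stood at 80.1 and 69.9 against 78.0 and 62.2. The CTCF-matching region of intron 26, chr5:141524654-141525252, stood at 83.0 and 80.4 against 85.5 and 73.4. In intron 18, chr5:141560724-141561217 stood at 95.5 and 82.5 against 92.4 and 90.9. In percentile none of these groups were separate. Fold enrichment was higher in both I-BET151 libraries at each, as was the median fold of the whole lists. The limma adjusted p was 0.378, 0.505 and 0.707 in the same order.

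The 4 gained distal regions were weaker. The region of gamma intron 3, chr5:141508378-141509216, had fold enrichments of 4.71 and 4.82 in I-BET151, at the 33.9 and 30.7 percentiles. That of gamma intron 2, chr5:141496156-141496481, had 4.96 and 4.61, at the 38.0 and 25.7 percentiles. The other two were in DIAPH1 intron 18 (chr5:141557674-141558201), with 5.56 and 4.33, and just past the gamma cluster (chr5:141513769-141514521), with 3.48 and 4.83. All 4 lay below the middle of at least 1 I-BET151 list. The remaining 6 distal regions were each called in 1 library only.

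**Figure D4:**
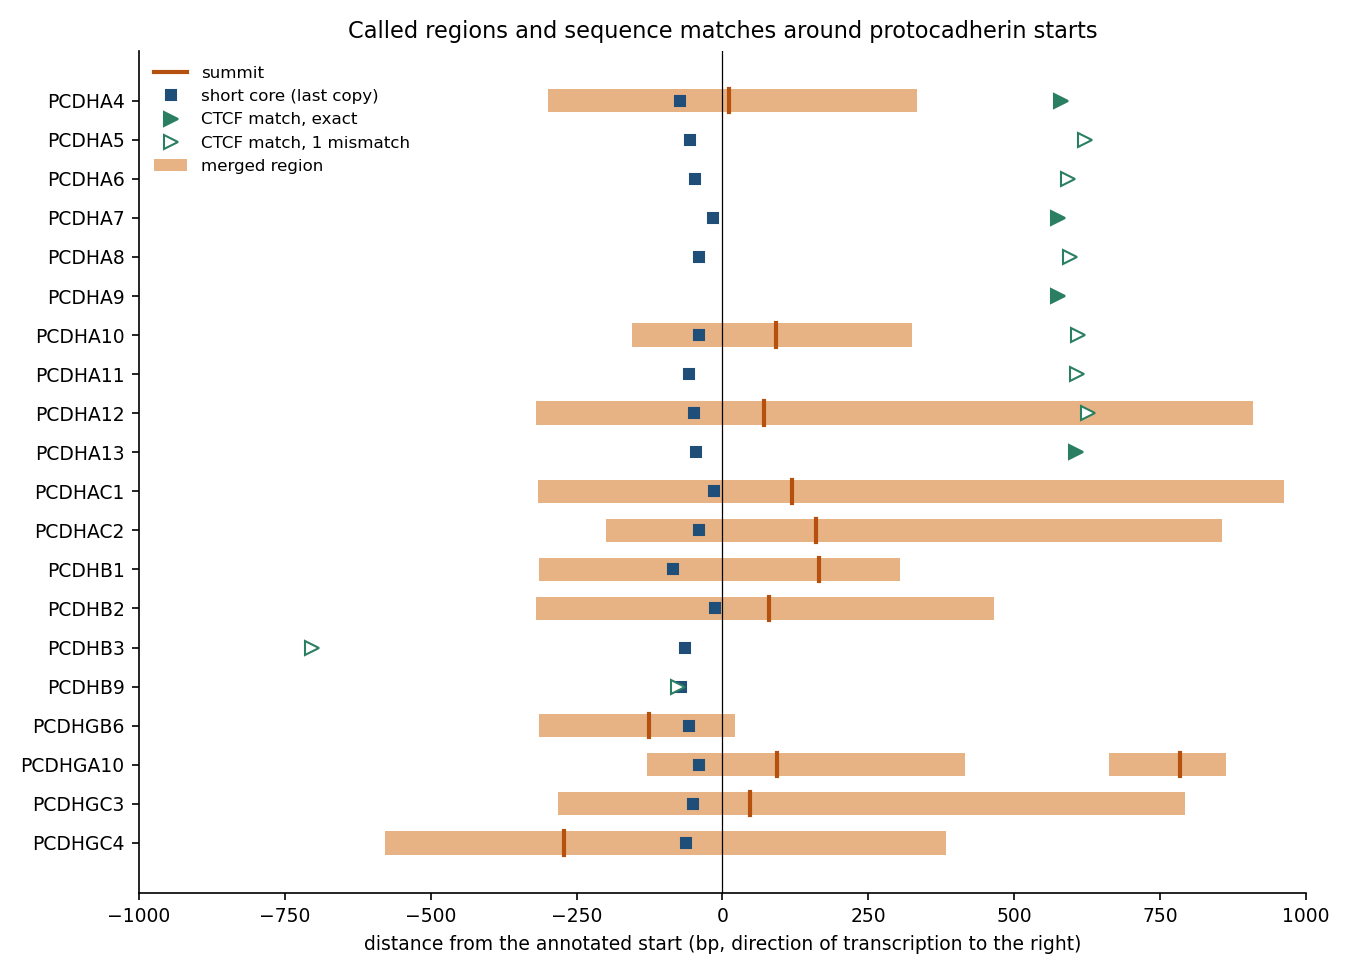
Merged called regions (bars) and summits (dark lines) by distance in bp from the annotated start, for the 11 members with a called promoter and the other members with a CTCF match. Squares mark the last copy of the short core and triangles the CTCF match, filled where exact. Of the alpha promoters, the region of PCDHA12 alone reached over its CTCF match, at 626 bp.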

How the data were processed

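The members and gene lists were chosen with earlier results of these data known. Per the labels and the study's methods, the authors aligned reads to hg38 with Bowtie2 (2.2.5), removed duplicate and mitochondrial reads and called peaks per library with MACS2 (2.1.2) at p of 1e-05, with shifted and extended ends. The lists reach −log10 p below 5, so they were used as deposited and that threshold was an alternative. The shortest peak was 200 bp in replicate 1 of both groups, 233 bp in DMSO replicate 2 and 256 bp in I-BET151 replicate 2. Whether all lists were called with the same options is thus not known. This length also enters the estimated library reads. The deposited files give fold enrichment, a ratio, and −log10 p-values and −log10 q-values per peak; they hold no read counts. Whole reads at summits were recovered from fold and −log10 p, and library reads were estimated from the lowest background and the genome size. Peaks overlapping by 1 bp were merged. Promoters reached 1000 bp on each side of the canonical GENCODE 44 start. Shared regions were tested with limma (3.58.1, R 4.3.3), a test checked on simulated data. Precision is limited by 2 libraries per group. Named were the 10 member promoters with the highest mean percentile, gained and lost promoters, the 6 distal regions with the highest mean percentile, gained and lost distal regions (at most 6 each) and shared regions with adjusted p under 0.05; a further distal region, TAF7, PCDHGB6 and the promoters without a call were named after their values were seen. The replicate numbers were not used to pair the libraries in the main fit. Within-group differences correlated at −0.14 over the shared regions, which cannot show whether libraries of the same number shared a batch.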

Additional observations from a re-analysis of the deposited data

How the results depend on the processing

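Peaks with −log10 p of at least 10 left 5 gained and 0 lost of 21 regions, against 23.3% and 0.269% of all merged regions. The differences were 6.5 called member promoters and 9.65 in mean percentile. In that setting 2 shared regions passed the limma threshold (TAF7 and PCDHGC3, both higher), while PCDHGC4 became a gained region. Equal numbers of peaks gave 3 gained of 19 regions, against 9.19% of all merged regions, and differences of 5.5 promoters and 7.22 in percentile. There 0 shared regions passed the threshold. At 50% overlap 0 shared regions passed, and the PCDHA12 region was no longer gained. In both of the last settings 4 of the 7 shared regions tested in the locus had an unadjusted limma p under 0.05. Over all shared regions 4965 of 18505 and 3645 of 14402 had one, in the same order of settings. PCDHGC4 was not among the regions tested there. Leaving out each library in turn gave 8 to 11 gained and 0 to 4 lost regions in the locus. Over all merged regions it gave 18.3% to 43.7% gained and 2.75% to 20.9% lost. The differences were 3.5 to 4.5 promoters and 8.07 to 9.09 in percentile. The 11 gained of 31 regions came without I-BET151 replicate 2, where 35.8% of all merged regions were gained. The 4 lost of 30 regions came without DMSO replicate 2, where 20.9% of all merged regions were lost. The fit with the replicate block kept 1 region past the threshold and changed no other call. The difference of 8.58 in percentile is the same with that block by construction, so it is no separate check. A crossed replicate block, chosen after seeing the data, gave 4. With exact matches only, 4 member promoters held the CTCF consensus in place of 12. The threshold of −log10 p of at least 5, also chosen after seeing the data, and the 500 bp promoter left the counts of gained and lost regions, of called promoters and of shared regions past the threshold, where recomputed, within 1.5 times of their reported values. So did the omission of the flanks (5 gained and 0 lost regions), although it left 3 of 6 distal regions called in all 4 libraries and 2 of 4 gained ones. Ranks by −log10 p kept 1 region of the locus past the threshold, but over all shared regions gave 8 higher and 27 lower in place of 875 and 503. Depth limits every uncalled region, since no value below the peak threshold was used here.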
